A study of Rattus norvegicus with 60 samples.

Results

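The lungs of 12 of the series' 60 rats were compared here, those taken 4 weeks after a 5-day inhalation exposure, chosen by the time given in the sample titles. The 12 were 8 male CDF Fisher 344 rats that had breathed crystalline silica at 15 mg/m3 for 6 hours a day and 4 male rats of the same strain that had breathed air without silica, all approximately 3 months of age by the labels. Each rat gave 1 array of total lung RNA, and the replicate numbers name different rats. The remaining 48 rats, killed at 1, 2, 8 and 16 weeks with 8 silica and 4 air rats each time, served to estimate the spread within groups and to ask where 4 weeks differed. All genes detected on the arrays were analysed, 13899 in number, as log2 normalised signal.

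Crystalline silica that reaches the air sacs is engulfed by alveolar macrophages, which cannot digest it. The particles damage lysosomes and set off interleukin-1 release, and chemokines from macrophages and epithelial cells then draw neutrophils and monocytes into the lung. When this persists it is known to lead to silicosis, a scarring disease with macrophage-rich nodules and disturbed surfactant.

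The arrays measured lung. Sftpc, the surfactant protein of type II alveolar cells, had signals of 13.96 to 14.33, and Scgb1a1, the main secreted protein of club cells, 14.22 to 14.46. Their differences were small, -0.10 ± 0.07 and -0.08 ± 0.06, and did not pass (limma adjusted p = 0.437 and 0.434). The median array signal was 65.5 to 83.1 in air rats and 71.7 to 97.8 in silica rats, and 12040 to 12507 and 11388 to 12415 genes were detected. The number of arrays, above all the 4 air arrays, limits the precision. RNA came from tissue with many cell types, so that fewer cells of a type and less RNA per cell cannot be told apart.

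Some arrays stood apart from the rest. The mean of 11 cardiac muscle markers was 8.08, 8.85, 8.09 and 7.03 in silica replicates 5, 6, 7 and 8, 5.37 to 6.06 in the other 4 silica rats, and 5.41 to 5.78 in air rats. Among the 48 rats of other times it ranged from 5.45 to 8.53 with a median of 6.81. Of the 11 markers 5 to 8 were detected in an air rat and 6 to 11 in a silica rat. The mean of 9 liver genes was highest in silica replicates 2, 7 and 5 (9.30, 8.92 and 8.47), against 6.73 to 7.62 in air rats. That of 6 mesothelial markers was 8.38 to 9.55 in silica and 9.30 to 9.97 in air rats. The part of these cells in the results below was not tested, and counts are also given without silica replicates 5 to 8 and without silica replicates 2, 5 and 7.

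**Figure D1:**
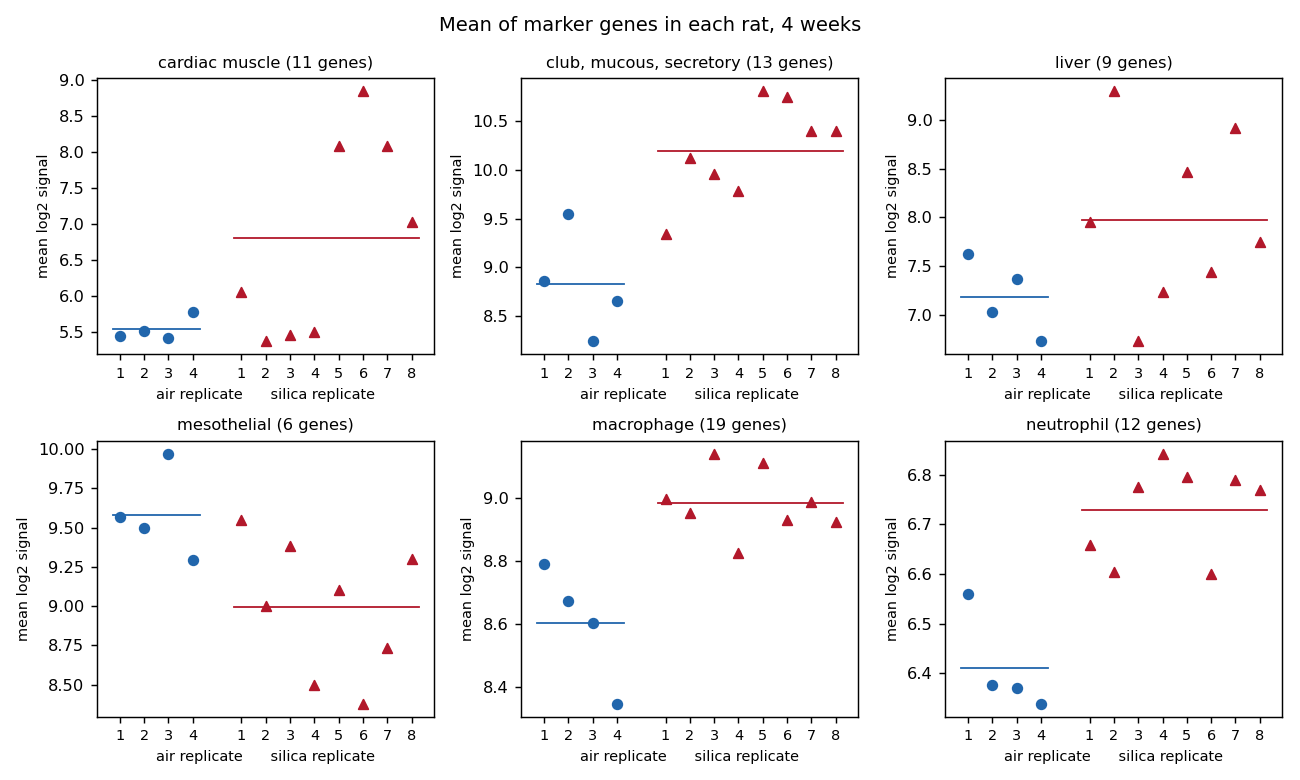
Mean log2 normalised signal of 6 marker lists in each of the 4 air rats (circles) and 8 silica rats (triangles) at 4 weeks, by replicate number, with a line at each group mean and a separate vertical scale in each panel. Cardiac muscle markers were highest in silica replicates 5 to 8, while macrophage and neutrophil marker means were higher in all 8 silica rats than in all 4 air rats. The neutrophil mean includes Cd177, whose difference of 2.21 was the largest of that list, where the median was 0.10.

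The first question was which genes differed between silica and air rats 4 weeks after exposure. At a limma adjusted p under 0.05, 921 of 13899 genes (6.63%) were called, 397 higher (2.86%) and 524 lower (3.77%) in silica rats. The called rises were larger, with a median log2 difference of 0.39 against -0.28 for the called falls and -0.02 for all genes. A stricter rule, an adjusted p under 0.01 with a 1.5-fold difference, left 82 genes (0.59%), of which 75 were higher and 7 lower. At least 2-fold differences were called for 28 genes, 24 higher and 4 lower. Without adjustment, 2904 of the 13899 genes had a limma p under 0.05. The 2 groups did not overlap in 481 genes (3.46%), among them 358 of those called. In 880 called genes every silica rat lay beyond the air mean, for which the count over all genes is not given here.

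Without silica replicates 5 to 8 the count was 500, of which 441 were among the 921, and without silica replicates 2, 5 and 7 it was 474, of which 449 were. The stricter count was 74 and 64. The count also depended on single air rats, being 240 with air replicate 3 left out, 353 with air replicate 4 left out and 1454 with air replicate 2 left out. Of the called genes 43.1% were higher, but 25.1% with arrays scaled to one median, 55.9% with cyclic loess, 53.0% with the 4-week arrays fitted alone and 59.6% without silica replicates 5 to 8. Median scaling ended 43 of the 94 calls of named genes. They were Ccl4, Pf4, Cxcl9, Cx3cl1, S100a8, Mrc1, Arg1, Retnla, Atp6v1a, Npc2, Psap, Scd2, Abcg1, Hmox1, Gsr, Muc1, Ctsh, Lamp3, Sftpd, Cfb, C7, RT1-Ba, RT1-DMa, RT1-Da, Psmb10, Jchain, Hdc, Icam1, Tnip1, Ccnb2, Cdk1, Mmp11, Tgfbr1, Tie1, Krt8, Cox6a2, Cyp1b1, Slc51a, Cry1, Nfil3, Bmal1, Ebp and Fmo6. Fitting the 4-week arrays alone ended 24, among them Vwf, Emcn, Cfb, Gsr, Lamp3, Sftpd, Npc2, Psap and Nkg7.

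**Figure D2:**
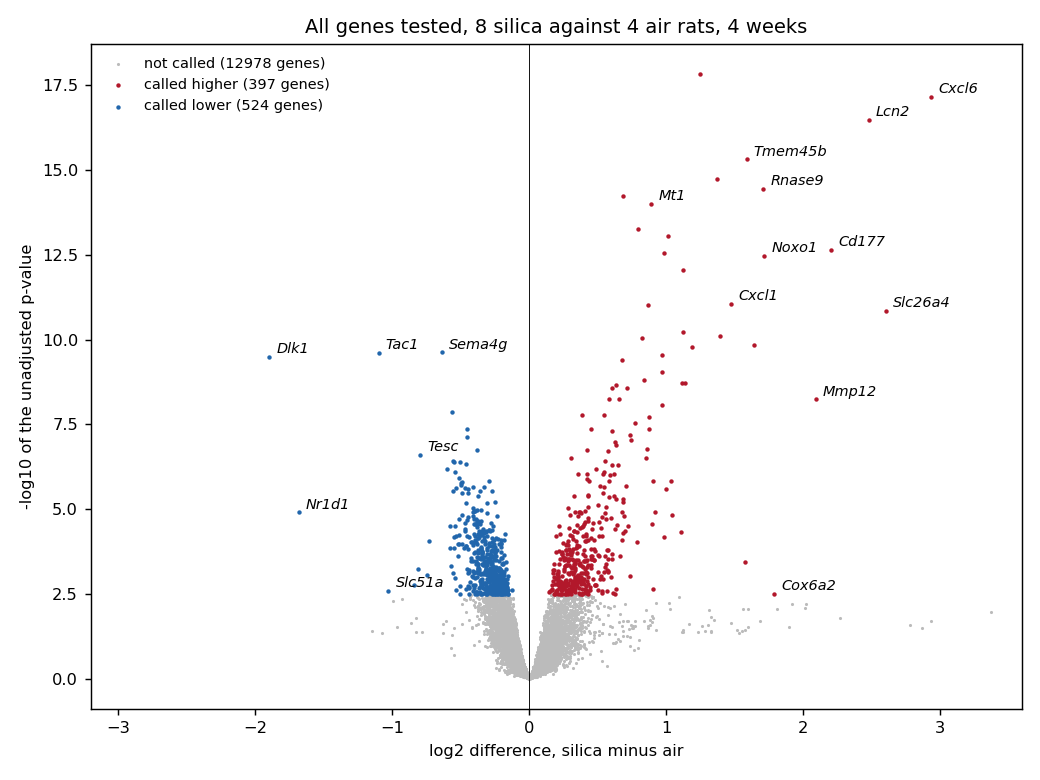
All 13899 genes tested, by the log2 difference of 8 silica minus 4 air rats at 4 weeks (horizontal axis) and -log10 of the unadjusted limma p-value (vertical axis), with 397 genes called higher in red and 524 called lower in blue. The genes farthest to the right are Cxcl6 among those called and some secretory and cardiac genes that were not called, and those farthest to the left are Dlk1 and Nr1d1.

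Chemokines that draw neutrophils held the largest called rise. Of 8 measured members of the list of neutrophil chemokines and their receptors, 5 rose, where 2.86% of all genes did. The list had 0 falls and a median difference of 0.41. That list also holds Pf4, named for platelets, which is 1 of the 5. Cxcl6 signals in the 4 air rats were 6.30, 5.81, 4.97 and 4.83, and those in the 8 silica rats 7.97 to 8.98 with a median of 8.30. The groups were far apart, and the gene was detected in all 8 silica but only 2 of 4 air rats. Its difference was 2.93 ± 0.23 on log2, or 7.64-fold (adjusted p = 4.84e-14). Cxcl1, a related ligand of the neutrophil receptor Cxcr2, had signals of 10.86, 10.60, 10.58 and 10.09 in air rats and 11.81 to 12.17 with a median of 12.00 in silica rats, again without overlap (1.48 ± 0.17, 2.78-fold, adjusted p = 8.08e-09). Cxcl2 stood at 5.96, 5.72, 5.86 and 5.19 in air and 6.25 to 6.96 with a median of 6.63 in silica rats (0.92 ± 0.19, adjusted p = 0.00133). Pf4, platelet factor 4 (0.48 ± 0.12), and Cxcl3, named after its value was seen (0.34 ± 0.09), also rose, though 1 silica rat or more lay within the air range of each. The receptors did not pass, with 0.29 ± 0.13 for Cxcr2 and 0.02 ± 0.16 for Cxcr1. Without silica replicates 5 to 8 the list had 4 calls in place of 5, and that of Pf4 ended (0.45, adjusted p = 0.0625), as it did without air replicate 3 or 4 (0.40 to 0.59 over all 12 omissions). Leaving out air replicate 3 or 4, or scaling by the median, gave 3 calls in this list, those of Cxcl6, Cxcl1 and Cxcl2.

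The sequences just before the start of these genes are shown because several of them hold the same short motif. A form of the site that NF-kB proteins bind, GGG followed by any 2 bases and then TTTCC, was searched on both strands of the 250 bases before the start in RefSeq promoters of assembly GRCr8. It stood in 1.3% of 33469 promoters. Of the 12 CXC, CC and CX3C chemokines called higher 7 had a promoter in the table, and 4 of those held the motif, namely Cxcl6, Cxcl1, Cxcl2 and Ccl20. Nfkbiz, an inducible partner of NF-kB that was picked by hand, held it as well. The motif is not reported here for the called falls of the NF-kB list, Icam1 and Tnip1. Below are the last 120 bases before each start, 5′ to 3′ on the gene's strand, with matches to the motif or its reverse complement in capitals. A match is a description of letters, not evidence of binding.
Cxcl6 (chr14:17596418-17596537, minus strand): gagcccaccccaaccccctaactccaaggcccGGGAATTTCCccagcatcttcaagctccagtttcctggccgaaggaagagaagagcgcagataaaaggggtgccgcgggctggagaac
Cxcl1 (chr14:17479322-17479441, minus strand): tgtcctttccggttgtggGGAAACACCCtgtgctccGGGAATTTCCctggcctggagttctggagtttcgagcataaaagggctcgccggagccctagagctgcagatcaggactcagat
Cxcl2 (chr14:17467256-17467375, minus strand): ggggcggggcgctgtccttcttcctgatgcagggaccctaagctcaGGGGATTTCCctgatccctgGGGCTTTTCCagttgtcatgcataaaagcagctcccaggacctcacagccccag
Ccl20 (chr9:91837039-91837158, plus strand): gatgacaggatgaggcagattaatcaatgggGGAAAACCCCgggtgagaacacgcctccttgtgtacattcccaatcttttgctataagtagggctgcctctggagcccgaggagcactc
Nfkbiz (chr11:58251601-58251720, plus strand): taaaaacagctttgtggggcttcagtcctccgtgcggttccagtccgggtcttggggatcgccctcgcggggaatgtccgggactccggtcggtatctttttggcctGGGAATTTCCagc
The matches began 88 bases before the start in Cxcl6, 102 and 84 in Cxcl1, 74 and 54 in Cxcl2, 89 in Ccl20 and 13 in Nfkbiz. The stretches shown for the 3 Cxcl genes lie between bases 17467256 and 17596537 of chromosome 14. These are related chemokines, so that their matches need not be 3 separate observations. Of the 12 largest rises 10 had a promoter and 3 held the motif, and of the 12 largest falls 10 had one and 0 did. The 3 were Ccl20, Cxcl1 and Cxcl6, already counted among the chemokines above. With the motif in 1.3% of promoters, 0 of 10 falls gives no contrast.

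Among CC chemokines and their receptors, 5 of 18 rose and 0 fell (median 0.20), where 2.86% of all genes rose. Ccl2, which attracts monocytes, measured 7.87, 7.48, 7.07 and 6.67 in air rats and 8.47 to 9.30 with a median of 8.87 in silica rats, with no overlap (1.64 ± 0.21, 3.11-fold, adjusted p = 9.72e-08). Its neighbour in function Ccl7 gave 6.24, 6.16, 5.63 and 5.66 in air and 6.36 to 7.18 with a median of 6.80 in silica rats (0.90 ± 0.20). The macrophage inflammatory protein genes Ccl3 (0.87 ± 0.14, 7.92 to 8.18 in air and 8.62 to 9.05 with a median of 8.87 in silica rats) and Ccl4 (0.52 ± 0.10) rose without overlap, and the rats within each group lay close together. Ccl20, which attracts cells carrying Ccr6, varied most. It read 5.98, 7.23, 6.05 and 6.09 in air rats, of which replicate 2 was high, and 6.80 to 9.31 with a median of 7.74 in silica rats, of which replicates 5 and 6 were highest, so that the groups overlapped (1.57 ± 0.41, adjusted p = 0.0131). That call ended without silica replicates 5 to 8 (1.09, adjusted p = 0.176), without silica replicates 2, 5 and 7, with the 4-week arrays fitted alone, and without air replicate 3 or 4 (1.37 to 1.87 over the 12 omissions). The receptors Ccr1, Ccr2, Ccr3 and Ccr7 did not pass, with differences from -0.14 to 0.15.

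Of 10 interferon-induced and lymphocyte-attracting chemokines and receptors, 2 rose and 0 fell (median 0.07), where 2.86% of all genes rose. Cx3cl1, a membrane-bound chemokine, was 10.42, 10.25, 10.55 and 10.50 in air rats and 10.82 to 11.10 with a median of 10.98 in silica rats, without overlap (0.54 ± 0.08, adjusted p = 5.71e-06). Cxcl9 rose by less (0.43 ± 0.11), a call lost without silica replicates 5 to 8 (0.38, adjusted p = 0.102) and without air replicate 3 or 4 (0.41 to 0.47). Cxcl10, a textbook interferon target, differed by -0.17 ± 0.33 and did not pass. Among 17 interferon-stimulated genes 0 were called in either direction by limma (median -0.05, which became 0.06 without silica replicates 5 to 8). At an unadjusted limma p under 0.05 the list had 2 lower and 0 higher, where 2904 of all 13899 genes had such a p.

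Of 17 cytokines and interleukin-1 family genes 1 rose, where 2.86% of all genes did, the decoy receptor Il1r2, with 7.24, 6.84, 6.80 and 6.97 in air rats and 7.32 to 7.73 with a median of 7.62 in silica rats (0.60 ± 0.13, adjusted p = 0.0018). Il1b (0.30 ± 0.11), Il1a (0.30 ± 0.10), Tnf (0.21 ± 0.10) and Nlrp3, the inflammasome sensor (0.17 ± 0.12), did not pass. In the list of NF-kB and Toll-like receptor genes 1 of 14 rose and 2 fell (median 0.05, -0.01 with median scaling), where 2.86% of all genes rose and 3.77% fell. The riser was Nfkbiz, at 5.09 to 5.39 in air and 5.35 to 6.18 with a median of 5.73 in silica rats, with overlap (0.51 ± 0.13, or 0.67 without silica replicates 5 to 8). Its call ended without air replicate 3 or 4 (0.45 to 0.57) and with the 4-week arrays fitted alone. The falls of Icam1, an adhesion molecule (-0.19 ± 0.06), and Tnip1 (-0.25 ± 0.08) both ended without silica replicates 5 to 8 (-0.13 and -0.18), that of Icam1 also without air replicate 1, 3 or 4 or silica replicate 6 (-0.27 to -0.16), and that of Tnip1 without any 1 of 8 of the 12 rats (-0.37 to -0.18), namely air replicates 1, 3 and 4 and silica replicates 1, 3, 6, 7 and 8.

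Of 12 neutrophil markers measured, 2 rose and 0 fell (median 0.10), where 2.86% of all genes rose. The mean over the list was higher in all 8 silica rats (6.60 to 6.84) than in all 4 air rats (6.34 to 6.56). The list mean differed by 0.32 between groups, above the median of 0.10, and Cd177 had the largest difference of the list. Cd177, a surface glycoprotein of neutrophils, read 9.98, 9.71, 8.85 and 8.73 in air rats and 11.23 to 11.88 with a median of 11.52 in silica rats, with no overlap (2.21 ± 0.23, 4.61-fold, adjusted p = 2.82e-10). S100a8, a subunit of the granulocyte protein calprotectin, was 9.99 to 10.42 in air and 10.34 to 11.05 with a median of 10.89 in silica rats, with overlap (0.64 ± 0.14, and 0.47 with adjusted p = 0.0897 without silica replicates 5 to 8). Its partner S100a9 differed by 0.05 ± 0.11, the granule enzyme Mpo by -0.15 ± 0.07 and the growth factor receptor Csf3r by 0.04 ± 0.11, and none of these 3 passed.

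Of 19 macrophage markers measured 8 rose and 0 fell, where 2.86% of all genes rose. The median was 0.27 and 16 of 19 differences were above 0. The number called was 6 without silica replicates 5 to 8 and 3 without silica replicates 2, 5 and 7, 3 without air replicate 4 and 4 with median scaling. Mmp12, the macrophage elastase, had air signals of 9.19, 8.62, 7.71 and 7.65 and silica signals of 9.87 to 10.93 with a median of 10.39 (2.09 ± 0.30, 4.26-fold, adjusted p = 2.18e-06). The groups did not overlap, but air replicates 1 and 2 were well above air replicates 3 and 4. Chi3l1, a chitinase-like secreted protein, was 11.28, 11.22, 10.72 and 10.71 in air and 11.91 to 12.48 with a median of 12.06 in silica rats (1.12 ± 0.12, 2.18-fold). Atp6v0d2, a proton pump subunit of macrophages and osteoclasts, was 7.51, 7.45, 7.23 and 6.94 in air and 7.95 to 8.50 with a median of 8.38 in silica rats, both genes without overlap (1.00 ± 0.19). Itgax, the integrin CD11c, rose by 0.45 ± 0.11, a call that ended without air replicate 4 (0.36 to 0.52) and without silica replicates 2, 5 and 7. Spp1, the secreted matrix protein osteopontin, read 8.01, 7.78, 8.22 and 7.01 in air rats and 7.35 to 7.96 with a median of 7.56 in silica rats and did not pass (-0.18 ± 0.36, adjusted p = 0.849). Neither did Msr1, a scavenger receptor (0.11 ± 0.13), or Trem2, a lipid-sensing receptor (0.18 ± 0.15).

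Genes of alternative macrophage activation rose in 3 of 10 cases and fell in 0 (median 0.24), where 2.86% of all genes rose. Retnla, a secreted protein typical of this state in rodents, was 11.37, 10.61, 10.50 and 9.70 in air rats and 11.23 to 11.92 with a median of 11.70 in silica rats (1.11 ± 0.25, 2.15-fold, adjusted p = 0.0033). Air replicate 1 lay within the silica range and air replicate 4 far below the other air rats, and without air replicate 4 the call ended (0.82 to 1.38 over the 12 omissions). Arg1, arginase, rose by 0.45 ± 0.12 and the mannose receptor Mrc1 by 0.36 ± 0.10. Both calls also ended without air replicate 4 (0.39 to 0.53 and 0.30 to 0.42), and that of Mrc1 without air replicate 3 or silica replicate 3. With silica replicates 2, 5 and 7 left out, 1 of the 3 list members was called, and with median scaling 0.

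The list of lysosome and proton pump genes had a median of 0.13, but -0.02 with median scaling, where 1 was called. Of its 23 genes 4 rose and 0 fell, where 2.86% of all genes rose. Besides Atp6v0d2 they were Atp6v1a, another pump subunit (8.08 to 8.80 in air and 8.86 to 9.03 with a median of 8.94 in silica rats, 0.50 ± 0.13), Npc2, which carries cholesterol out of lysosomes (0.24 ± 0.06), and Psap, the saposin precursor (0.32 ± 0.09). The calls of these 3 ended without air replicate 3 or 4 (0.38 to 0.62, 0.19 to 0.30 and 0.23 to 0.38). Lamp1 (0.11 ± 0.06), Ctsd (0.06 ± 0.14) and Ctsb (0.19 ± 0.07), a membrane protein and 2 proteases of lysosomes, did not pass.

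Lipid and cholesterol genes rose in 6 of 24 cases and fell in 0 (median 0.14), where 2.86% of all genes rose. The count was 4 without air replicate 3, 2 without air replicate 4 and 2 under median scaling. Ch25h, which makes 25-hydroxycholesterol, led with 7.52, 6.83, 7.25 and 6.93 in air rats and 8.07 to 8.49 with a median of 8.24 in silica rats, far beyond the spread of either group (1.14 ± 0.16, 2.21-fold, adjusted p = 8.66e-07). Soat1, which esterifies cholesterol, rose by 0.51 ± 0.12 (ended without air replicate 4, 0.37 to 0.61), the desaturase Scd2 by 0.34 ± 0.08 and the sterol exporter Abcg1 by 0.28 ± 0.07 (ended without air replicate 3 or 4, 0.25 to 0.30). The synthesis enzyme Hmgcs1 (0.00 ± 0.09) and the master regulator Srebf2 (-0.17 ± 0.11) did not pass.

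Defences against oxidants and metals rose in 4 of 19 cases and fell in 0, where 2.86% of all genes rose. The median was 0.08, and -0.07 with median scaling, where 2 were called. Sod2, the mitochondrial superoxide dismutase, was 10.30, 10.04, 9.74 and 9.76 in air rats and 10.77 to 11.16 with a median of 10.90 in silica rats (0.99 ± 0.10, 1.98-fold, adjusted p = 3.2e-10). Mt1, a metallothionein, read 9.84, 9.49, 9.60 and 9.31 in air and 10.29 to 10.59 with a median of 10.45 in silica rats (0.89 ± 0.08, adjusted p = 1.71e-11). Hmox1, which breaks down haem, read 9.28, 9.05, 9.19 and 8.90 in air and 9.68 to 9.97 with a median of 9.76 in silica rats (0.68 ± 0.16). None of these 3 overlapped between groups. Gsr, glutathione reductase, rose by 0.27 ± 0.07, which did not hold without air replicate 3 or 4 (0.20 to 0.32). The antioxidant genes Nqo1 (0.07 ± 0.11), Gclc (0.04 ± 0.06) and Gclm (0.08 ± 0.06), known targets of the factor Nrf2 as Hmox1 and Gsr also are, did not pass.

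Among 14 NADPH oxidase and dual oxidase genes 1 rose and 0 fell (median 0.08), where 2.86% of all genes rose. This was Noxo1, which organises a superoxide-producing oxidase complex, with 7.99, 7.41, 7.03 and 6.94 in air rats and 8.80 to 9.27 with a median of 9.07 in silica rats, again without overlap and with air replicate 1 above the other air rats (1.71 ± 0.18, 3.28-fold, adjusted p = 3.64e-10). The oxidases Nox4 (0.02 ± 0.11) and Duox1 (0.12 ± 0.15), the phagocyte subunit Cybb (0.23 ± 0.14) and the airway peroxidase Lpo (0.12 ± 0.15) did not pass.

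Airway secretory genes held several of the largest rises. Of 13 club, mucous and secretory cell genes 6 rose and 0 fell, where 2.86% of all genes rose. The median was 0.87 (0.67 without silica replicates 5 to 8, with the same count of 6). The members, among them the preset genes Slc26a4 and Lcn2, were chosen with earlier results of these data known. The count is therefore not independent support for a rise of these cells' genes. Slc26a4, the anion exchanger pendrin, read 8.59, 7.79, 6.73 and 6.57 in air rats and 9.59 to 10.36 with a median of 10.12 in silica rats (2.61 ± 0.31, 6.08-fold, adjusted p = 1.14e-08). Lcn2, which binds bacterial iron carriers, read 7.83, 7.50, 6.76 and 6.89 in air and 9.30 to 9.96 with a median of 9.78 in silica rats (2.48 ± 0.20, 5.57-fold, adjusted p = 1.48e-13). In both genes air replicates 1 and 2 were above air replicates 3 and 4, and all 8 silica rats were above every air rat by more than the silica rats differed among themselves. Tmem45b, a membrane protein, was 5.46, 5.32, 5.29 and 4.92 in air rats, of which 3 of 4 had it detected, and 6.61 to 7.25 with a median of 6.75 in silica rats (1.59 ± 0.14). Cldn10, a tight junction protein, was 8.79 to 9.48 in air and 10.02 to 10.44 with a median of 10.15 in silica rats (1.01 ± 0.10, 2.02-fold). The other calls, Pigr, which carries IgA across the epithelium (0.63 ± 0.10), and the cell surface mucin Muc1 (0.52 ± 0.12), also came without overlap.

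Secreted airway proteins had large differences that did not pass, 3.37 ± 1.28 for Scgb3a1 (adjusted p = 0.102) and 2.93 ± 1.22 for Bpifa1 (adjusted p = 0.144), and Scgb1a1, as given above, did not pass. The list mean was 10.81, 10.75, 10.40 and 10.40 in silica replicates 5 to 8, 9.34, 10.12, 9.96 and 9.79 in silica replicates 1 to 4, and 8.24 to 9.55 in air rats. The 4 highest silica rats were therefore those high in cardiac muscle markers. Without them Slc26a4 differed by 2.54, Lcn2 by 2.35, Tmem45b by 1.46 and Cldn10 by 0.93, all still called (adjusted p = 4.94e-06, 1.4e-09, 5.87e-09 and 2.12e-07). Ciliated cell genes, the other main airway list, had 0 of 14 called by limma (median 0.15), the largest being 0.30 ± 0.16 for Cfap43. An unadjusted limma p under 0.05 was also found for 0 of them, against 2904 of all 13899 genes.

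**Figure D3:**
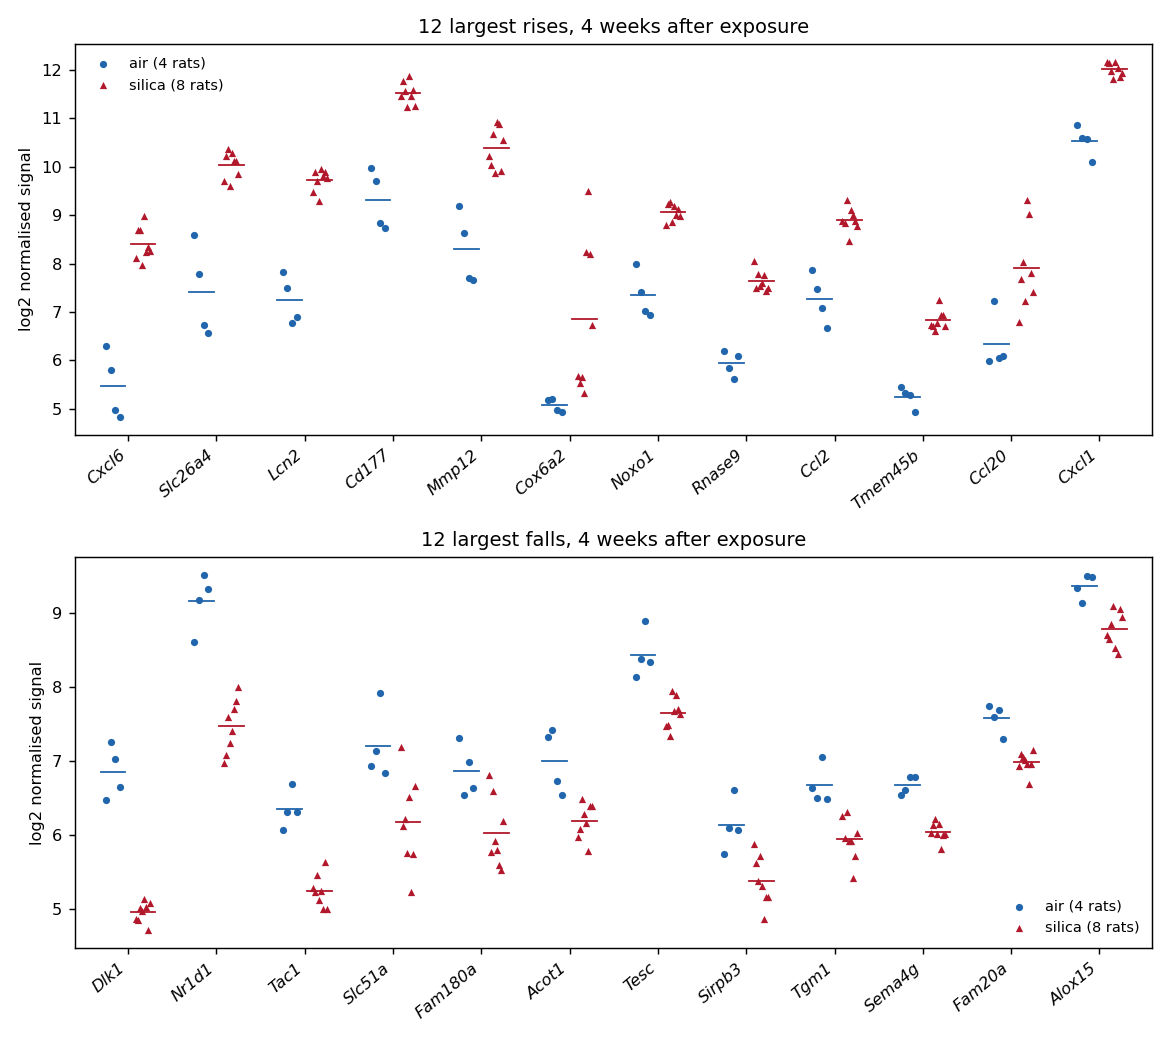
Log2 normalised signal of the 12 genes with the largest called rises (upper panel) and the 12 with the largest called falls (lower panel) in the 4 air rats (circles) and 8 silica rats (triangles), with lines at the group means. Cxcl6, Slc26a4 and Lcn2 show all silica rats above all air rats, whereas Cox6a2 is high in 4 of 8 silica rats and Ccl20, Slc51a, Fam180a and Sirpb3 overlap.

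In the alveolar epithelium, surfactant and type II cell genes rose in 4 of 13 cases and fell in 0 (median 0.15). The share of all genes that rose was 2.86%. Ctsh, a protease that processes surfactant proteins, was 11.55 to 11.97 in air rats and 12.01 to 12.29 with a median of 12.12 in silica rats (0.42 ± 0.08, adjusted p = 0.000236). Muc1 was shared with the secretory list. Lamp3, of the lamellar bodies that store surfactant (0.35 ± 0.09), and the surfactant collectin Sftpd (0.50 ± 0.14) were called too, but not without air replicate 3 or 4 (0.26 to 0.42 and 0.42 to 0.64). Without air replicate 3 or 4 the list had 2 calls, without air replicate 2 it had 7, and under median scaling 0. The surfactant proteins Sftpa1 (0.15 ± 0.06) and Sftpb (0.05 ± 0.07) did not pass. Of 14 type I cell and caveolar genes 0 were called by limma (median -0.09). An unadjusted limma p under 0.05 was found for 4 of them, against 2904 of all 13899 genes. Ager and Aqp5, both markers of the flat cells of the air sacs, differed by -0.14 ± 0.06 and -0.18 ± 0.07.

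Of 15 endothelial markers measured 0 rose and 4 fell, against 3.77% of all genes called lower, with a median of -0.17. Egfl7, a secreted protein of vessel cells, was 10.07, 9.79, 10.22 and 10.36 in air rats and 9.47 to 9.86 with a median of 9.59 in silica rats with a slight overlap (-0.49 ± 0.10, adjusted p = 0.00156). Vwf, the clotting factor carrier, differed by -0.33 ± 0.07, Emcn, a vessel sialomucin, by -0.24 ± 0.07 and Tie1, a receptor kinase, by -0.22 ± 0.06. The calls of Vwf, Emcn and Tie1 ended without air replicate 3 or 4 (-0.40 to -0.27, -0.29 to -0.16 and -0.24 to -0.20 over the omissions), that of Emcn also without silica replicate 2 or 4 and that of Tie1 also without silica replicate 3. Tie1 was not called without silica replicates 5 to 8 (adjusted p = 0.109) and Emcn not without silica replicates 2, 5 and 7, and the list had 3 calls in each case. With air replicate 3 or 4 left out 1 of the 15 was called. Nos3, endothelial nitric oxide synthase (0.02 ± 0.09), and Tek (0.08 ± 0.08) were near 0 and Cdh5, the junction protein of vessels, did not pass (-0.14 ± 0.12).

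Complement genes rose in 6 of 18 cases and fell in 0 (median 0.17), where 2.86% of all genes rose. The count was 2 without silica replicates 5 to 8 and 2 without silica replicates 2, 5 and 7. The count was also 2 without air replicate 3, 2 without air replicate 4, 4 without air replicate 2 and 2 with median scaling. C5 was 8.18, 8.22, 8.02 and 7.88 in air rats and 8.32 to 8.68 with a median of 8.60 in silica rats (0.49 ± 0.09, adjusted p = 0.000135), and Cfb, of the alternative pathway, rose by 0.24 ± 0.06. Cfi, the complement protease that cleaves C3b, was 7.92, 8.23, 7.12 and 7.16 in air and 8.04 to 9.08 with a median of 8.73 in silica rats, with air replicate 2 inside the silica range (0.99 ± 0.23), and C7 rose by 0.58 ± 0.16. The calls of Cfi and C7 ended without silica replicates 5 to 8 (adjusted p = 0.0622 and 0.0979) and without air replicate 3 or 4 (0.82 to 1.19 and 0.43 to 0.72). Among 9 liver genes 1 rose, where 2.86% of all genes did. This was the iron carrier Tf (11.24 to 11.48 in air and 11.75 to 12.32 with a median of 11.96 in silica rats, 0.68 ± 0.09), while Alb, the most abundant liver product, differed by 1.59 ± 0.72 without passing. The median of the liver list was 0.68, and 0.18 without the 3 silica rats high in it.

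Antigen presentation by MHC class II rose in 3 of 9 cases and fell in 0 (median 0.18), where 2.86% of all genes rose. The count was 1 without air replicate 3 and 0 under median scaling. RT1-Ba was 10.70, 10.57, 10.46 and 10.35 in air and 10.72 to 11.17 with a median of 10.94 in silica rats (0.43 ± 0.09, adjusted p = 0.00205). RT1-DMa (0.29 ± 0.07), which loads peptides, lost its call without air replicate 3 (0.25 to 0.34), and RT1-Da (0.18 ± 0.05) without air replicate 3 or 4 (0.16 to 0.19). MHC class I processing genes had 0 of 9 rising and 1 falling, where 3.77% of all genes fell. That fall was of the immunoproteasome subunit Psmb10 (-0.19 ± 0.05, not called without air replicate 3 or 4, -0.26 to -0.14).

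Lymphocyte and mast cell markers had no more than 1 call in a list, where 6.63% of all genes were called. Of 14 T cell markers 0 were called by limma (median -0.11). An unadjusted limma p under 0.05 was found for 3, all lower, against 2904 of all 13899 genes in either direction. Of the defining markers Cd3e differed by 0.04 ± 0.11, Cd4 by -0.21 ± 0.12 and Cd8a by -0.19 ± 0.09, none of them called. Of 9 B and plasma cell markers 1 rose, the antibody joining chain Jchain (10.31, 11.10, 9.50 and 9.90 in air and 10.30 to 11.13 with a median of 10.91 in silica rats, 0.61 ± 0.20, adjusted p = 0.0471). The groups overlapped and the call ended without any 1 of 9 of the 12 rats (0.38 to 0.91), all but air replicate 2 and silica replicates 2 and 3, and without silica replicates 5 to 8. Of 10 NK and cytotoxic markers 1 fell, Nkg7 (-0.27 ± 0.08), not called without air replicate 3 or 4 (-0.36 to -0.19), without silica replicates 5 to 8 (adjusted p = 0.0851) or without silica replicates 2, 5 and 7, and all 10 differences were below 0 (median -0.18). Of 7 mast cell markers 1 rose, Hdc, which makes histamine (7.44, 7.79, 7.46 and 7.52 in air and 7.84 to 8.12 with a median of 7.98 in silica rats, 0.43 ± 0.08), whereas the mast cell protease genes Cpa3 (-0.11 ± 0.18) and Tpsb2 (-0.05 ± 0.13) did not pass.

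Cell cycle genes rose in 5 of 21 cases and fell in 0 (median 0.16), where 2.86% of all genes rose. The count was 6 without silica replicates 5 to 8, 2 without silica replicates 2, 5 and 7 and 2 under median scaling. Rrm2, needed to make DNA building blocks, was 7.47, 7.23, 6.99 and 7.52 in air rats and 7.64 to 8.37 with a median of 7.98 in silica rats (0.69 ± 0.14, adjusted p = 0.000788). Bub1, a spindle checkpoint kinase, was 6.36, 6.47, 5.85 and 6.10 in air and 6.49 to 7.09 with a median of 6.72 in silica rats (0.56 ± 0.12), also without overlap, but not called without air replicate 3 (0.45 to 0.65). The mitotic genes Ccnb2 (0.39 ± 0.10) and Cdk1 (0.37 ± 0.11) were not called without air replicate 2 or 3 (0.30 to 0.45 and 0.31 to 0.42), nor was Cdk1 without air replicate 4 or silica replicate 3. The list had 1 call without air replicate 3 and 3 calls when air replicate 2 or 4 was left out. Mki67, the usual marker of dividing cells, did not pass (0.16 ± 0.10), nor did the DNA replication genes Mcm2 (0.06 ± 0.08) and Pcna (0.15 ± 0.06).

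Of 23 collagen and matrix genes 0 rose and 1 fell 4 weeks after exposure, where 2.86% of all genes rose and 3.77% fell. The median was -0.10 and 5 of 23 differences were above 0. By limma's unadjusted p under 0.05 the list had 1 higher and 4 lower, where 2904 of all 13899 genes had such a p. The fall was that of Loxl1, an enzyme that cross-links elastin, which was 11.07, 11.08, 11.21 and 11.41 in air rats and 10.53 to 11.10 with a median of 10.76 in silica rats, with overlap (-0.40 ± 0.09, adjusted p = 0.00371, ended without air replicate 4, -0.45 to -0.33). The fibrillar collagens Col1a1 (0.01 ± 0.10), Col1a2 (0.00 ± 0.06) and Col3a1 (-0.13 ± 0.08) and fibronectin, Fn1 (-0.18 ± 0.06), did not pass. Of 21 fibrosis growth factor and TGF-beta genes 1 rose, the receptor Tgfbr1 (0.29 ± 0.09), and 1 fell, the inhibitor Smad6 (-0.34 ± 0.09), against the same shares of all genes. Both calls ended without silica replicates 5 to 8 and without air replicate 3 or 4 (0.26 to 0.32 and -0.39 to -0.29). That of Tgfbr1 ended without any other single rat as well, except silica replicates 2, 4 and 6. Tgfb1 itself differed by -0.06 ± 0.10. Among 13 matrix metalloproteinases and inhibitors, set beside the same shares, Mmp12 rose and Mmp11 fell (-0.31 ± 0.09, not called without silica replicates 5 to 8 or without air replicate 3 or 4, -0.35 to -0.28). The inhibitor Timp1 did not pass (-0.16 ± 0.13).

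**Figure D4:**
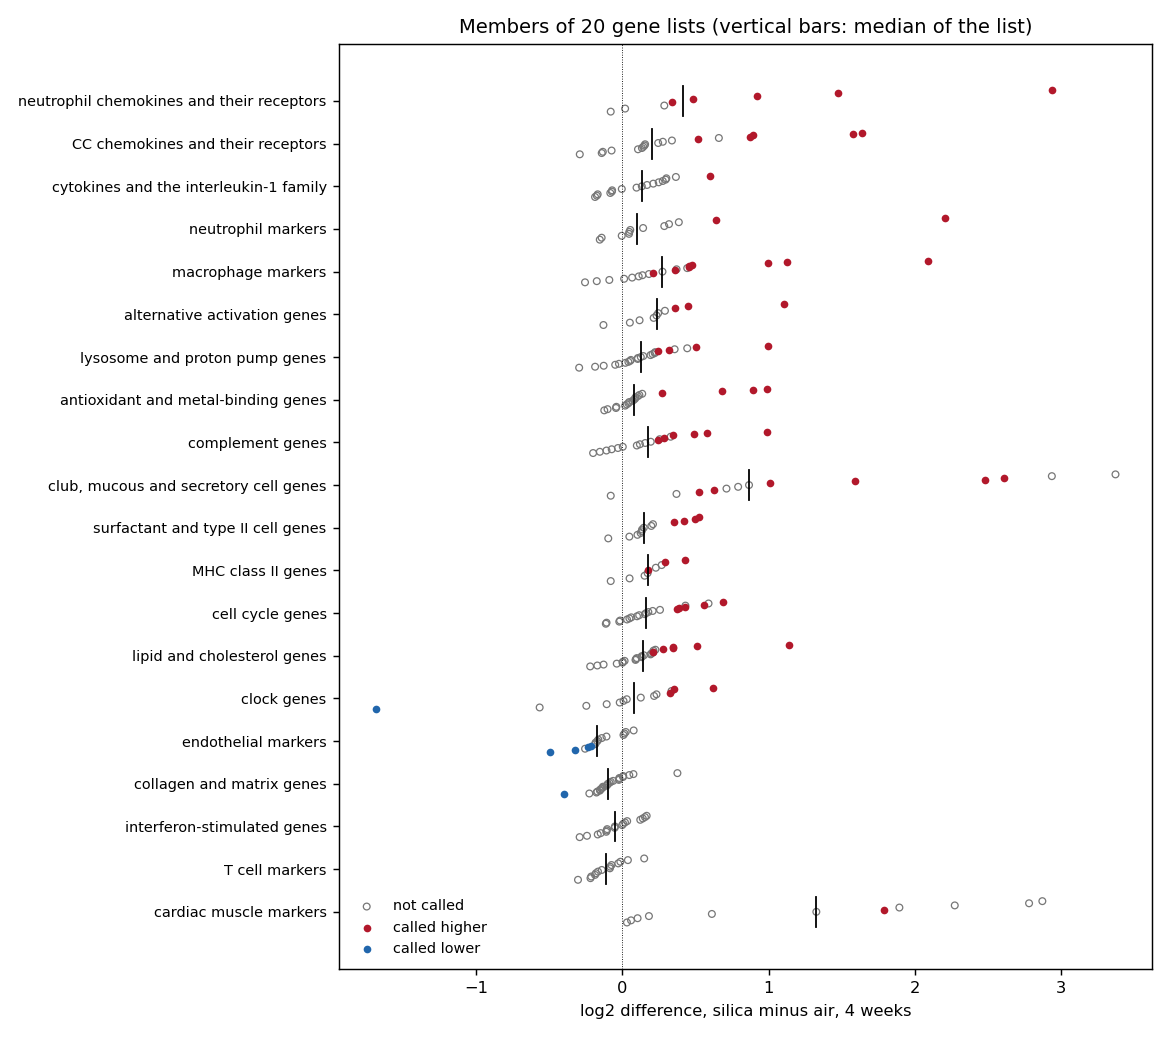
Log2 difference of 8 silica minus 4 air rats at 4 weeks (horizontal axis) for each measured member of 20 gene lists (rows), with genes called at a limma adjusted p under 0.05 filled and the median of each list as a vertical bar. Chemokine, macrophage and secretory genes called are to the right of 0 and endothelial genes called to the left, and most members of most lists were not called.

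Arginine genes moved both ways, 3 of 12 rising and 2 falling (median 0.06), where 2.86% of all genes rose and 3.77% fell. The number rising was 1 without air replicate 4, without silica replicates 2, 5 and 7 and with median scaling. Slc7a7, which carries arginine across membranes, was 9.04, 8.88, 8.42 and 8.60 in air rats and 9.18 to 9.63 with a median of 9.48 in silica rats (0.72 ± 0.10, adjusted p = 1.1e-06). Ass1, which makes the precursor of arginine, fell and was 9.20, 8.97, 9.12 and 8.97 in air and 8.49 to 8.89 with a median of 8.55 in silica rats (-0.45 ± 0.10), not called without silica replicates 5 to 8 (-0.39, adjusted p = 0.0598), and Ddah2, which breaks down methylated arginine, also fell (-0.23 ± 0.05). Nos2, the inducible nitric oxide synthase that competes with Arg1 for arginine, did not pass (0.03 ± 0.15). Of 14 xenobiotic-metabolizing genes 1 rose, where 2.86% of all genes did. The riser was Cyp1b1 (0.50 ± 0.16), with overlap. Its call ended without any 1 of 6 rats, air replicates 1, 3 and 4 and silica replicates 3, 5 and 6 (0.39 to 0.62). Without silica replicates 5 to 8 it differed by 0.32 (adjusted p = 0.338), and it was not called without silica replicates 2, 5 and 7 or with the 4-week arrays fitted alone. Of 17 immediate early genes 1 rose, against the same 2.86%. This was the transcription factor Egr2, with 9.04, 8.86, 8.98 and 9.06 in air and 9.24 to 9.54 with a median of 9.44 in silica rats (0.42 ± 0.07, adjusted p = 4.51e-05), whereas Fos (-0.04 ± 0.31) and Egr1 (-0.23 ± 0.24) did not pass.

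Lists of other cell types had no more than 1 call each, against the same 6.63% of all genes. Of 11 cardiac muscle markers 1 rose, Cox6a2, the cytochrome oxidase subunit found in heart and skeletal muscle. It was 5.19, 5.20, 4.97 and 4.94 in air rats and 5.32 to 9.49 with a median of 6.21 in silica rats, replicates 5 to 8 being the highest 4, with no overlap (1.79 ± 0.58, adjusted p = 0.0494). Without those 4 it differed by 0.48 (adjusted p = 0.745), it was not called without any single air rat or any 1 of these 4 either (1.41 to 2.00), and the list median went from 1.33 to 0.03. Of 6 mesothelial markers 1 fell, Krt8 (-0.18 ± 0.05), which ended without silica replicates 5 to 8 and without air replicate 3 or 4 or silica replicate 6 or 7 (-0.21 to -0.13), while the more specific Upk3b (-1.15 ± 0.54) and Msln (-0.82 ± 0.39) did not pass. Limma called 0 of 8 smooth muscle (median 0.00, -0.21 without silica replicates 5 to 8), 0 of 3 skeletal muscle (0.02), 0 of 2 adipocyte (0.05) and 0 of 5 erythroid markers (-0.10). These lists had 1, 0, 0 and 1 at an unadjusted limma p under 0.05, against 2904 of all 13899 genes.

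The largest falls belonged to genes of different known roles. Dlk1, a transmembrane protein that resembles the ligands of Notch, was 6.48, 7.27, 7.04 and 6.66 in air rats and 4.72 to 5.14 with a median of 5.00 in silica rats, of which 4 of 8 had it detected (-1.90 ± 0.25, adjusted p = 1.74e-07). The silica rats lay near the background, and the groups were far apart. Tac1, from which substance P of sensory nerves is made, was 6.08, 6.32, 6.70 and 6.32 in air and 5.00 to 5.64 with a median of 5.24 in silica rats, of which 7 of 8 had it detected (-1.10 ± 0.14, adjusted p = 1.42e-07). Tesc, a calcium-binding protein, was 8.15, 8.38, 8.90 and 8.34 in air and 7.35 to 7.96 with a median of 7.66 in silica rats (-0.79 ± 0.13). None of these 3 overlapped. Sema4g, a semaphorin, was 6.55 to 6.79 in air and 5.82 to 6.22 with a median of 6.03 in silica rats (-0.64 ± 0.08, adjusted p = 1.42e-07), and Fam20a, a pseudokinase of the secretory pathway, 7.30 to 7.75 in air and 6.70 to 7.15 with a median of 6.99 in silica rats (-0.60 ± 0.11), both with little spread within groups. Alox15, a lipoxygenase of macrophages and airway cells, fell too (-0.58 ± 0.14, ended without air replicate 3, -0.66 to -0.53).

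The calls of the remaining large falls ended with single rats left out. Slc51a, a subunit of a bile acid and steroid transporter, was 6.93, 7.14, 7.93 and 6.84 in air rats and 5.23 to 7.20 with a median of 6.17 in silica rats, with overlap (-1.03 ± 0.32, adjusted p = 0.0428). Its call ended without any 1 of 8 of the 12 rats (-1.17 to -0.79), air replicates 2, 3 and 4 and silica replicates 2, 3, 4, 6 and 7, and that of Fam180a (-0.84 ± 0.26) without any 1 of 7 (-0.96 to -0.69), air replicates 1, 3 and 4 and silica replicates 2, 5, 6 and 7. Sirpb3 (-0.74 ± 0.21, detected in 7 of 8 silica rats) was not called without air replicate 3 or 4 (-0.87 to -0.59), Tgm1, a transglutaminase of epithelia (-0.73 ± 0.17), without air replicate 3 (-0.79 to -0.60), and Acot1, which frees fatty acids from coenzyme A (-0.81 ± 0.22), without air replicate 1 or 2 (-0.96 to -0.67). All 5 also lost their calls without silica replicates 5 to 8, with differences of -0.89, -0.59, -0.48, -0.56 and -0.80. Among the large rises not yet described, Rnase9, a member of the ribonuclease A family, was 6.19, 5.85, 5.62 and 6.09 in air and 7.43 to 8.06 with a median of 7.57 in silica rats, with little spread (1.71 ± 0.16, 3.26-fold, adjusted p = 8.07e-12).

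Clock genes were the next question, because one of them was among the largest falls. In the circadian clock Bmal1 and its partner drive Nr1d1 and the Cry and Per genes through E-boxes, Nr1d1 represses Bmal1, Cry1 and Nfil3 through the sites that ROR proteins use, and Cry proteins close the loop. Of 14 clock genes 3 rose and 1 fell (median 0.08), where 2.86% of all genes rose and 3.77% fell. Nr1d1 was 8.62, 9.19, 9.52 and 9.33 in air rats and 6.98 to 8.01 with a median of 7.51 in silica rats, without overlap (-1.68 ± 0.35, 3.21-fold lower, adjusted p = 0.00135). Cry1 was 8.93, 8.59, 8.75 and 8.53 in air and 9.06 to 9.50 with a median of 9.35 in silica rats (0.62 ± 0.11, adjusted p = 0.000174). Nfil3 was 8.70, 8.54, 8.43 and 8.46 in air and 8.76 to 8.98 with a median of 8.89 in silica rats (0.35 ± 0.08), and Bmal1 6.99, 7.02, 6.94 and 6.80 in air and 7.16 to 7.40 with a median of 7.27 in silica rats (0.33 ± 0.09). All silica rats were above all air rats in the 3 that rose. The calls of these 3 ended with median scaling, and that of Bmal1 also without air replicate 3 or 4 (0.28 to 0.35) and without silica replicates 5 to 8. Per1 (-0.57 ± 0.28), Per2 (0.23 ± 0.13), Clock (-0.02 ± 0.09) and the output gene Dbp (-0.11 ± 0.26) did not pass. The labels used here give no hour of killing, so that the part of time of day in these differences was not tested.

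The upstream sequences of Nr1d1 and Bmal1 are shown for the links named above. CACGTG, the E-box core, which is its own reverse complement, stood in 5.59% of the 33469 promoters within 250 bases before the start, and AGGTCA, the half-site of ROR and Nr1d1 proteins, in 14.1% on either strand. Of 2 starts listed for Nr1d1 the one with an E-box is shown, in a stretch of 120 bases around it, and for Bmal1 the last 120 bases, with matches in capitals.
Nr1d1 (chr10:84229555-84229674, minus strand): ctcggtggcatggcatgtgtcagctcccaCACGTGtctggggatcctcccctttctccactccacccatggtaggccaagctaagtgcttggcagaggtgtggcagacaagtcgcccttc
Bmal1 (chr1:176766208-176766327, plus strand): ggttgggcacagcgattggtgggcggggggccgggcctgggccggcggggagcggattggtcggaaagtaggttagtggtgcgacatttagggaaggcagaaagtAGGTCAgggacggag
The half-site began 15 bases before the start of Bmal1.

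Where the response at 4 weeks differed from that at 2 weeks was asked next, by testing the difference of the 2 silica effects, each against its own air rats. Of 13899 genes 16 passed (0.115%), 8 with a more positive and 8 with a more negative effect at 4 weeks. Clock genes led. Nr1d1 differed between silica and air by 1.90 ± 0.35 at 2 weeks, when air rats averaged 7.74 ± 0.21 (SD, n = 4) and silica rats 9.64 ± 0.51 (SD, n = 8), and by -1.68 ± 0.35 at 4 weeks, a change of -3.58 ± 0.50 (limma adjusted p = 5.8e-06). Cry1 (-0.75 ± 0.11 and 0.62 ± 0.11), Bmal1 (-0.69 ± 0.09 and 0.33 ± 0.09) and Nfil3 (-0.46 ± 0.08 and 0.35 ± 0.08) turned the other way, by 1.37 ± 0.16, 1.02 ± 0.13 and 0.82 ± 0.11. Air rats changed as well, Bmal1 averaging 7.27 ± 0.02 in them at 2 weeks and 6.94 ± 0.10 at 4 weeks (SD, n = 4). At 1, 8 and 16 weeks Nr1d1 was lower in silica rats, with differences of -1.57 ± 0.35, -1.79 ± 0.35 and -1.72 ± 0.35, so that 2 weeks was the time with the opposite sign.

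Metabolic genes were also among the 16. Scd, a fatty acid desaturase, went from -0.81 ± 0.13 at 2 weeks to 0.23 ± 0.13 at 4 weeks (change 1.04 ± 0.19, adjusted p = 0.00288), and the monooxygenases Fmo6 and Fmo2 changed by 0.90 ± 0.17 and 0.84 ± 0.17. Acot1 turned from 0.67 ± 0.22 to -0.81 ± 0.22 (-1.48 ± 0.31, adjusted p = 0.0203), and Marchf7 (-0.88 ± 0.19), Pola2, a subunit of DNA polymerase alpha (-0.62 ± 0.14), and Bcl2l14 (-0.58 ± 0.11) also became more negative. None of the chemokine, secretory or macrophage genes described above was among the 16. The count was 4 with median scaling, 9 without silica replicates 2, 5 and 7, and 8 to 25 with single rats of either time left out. It was 10 without air replicate 1, 3 or 4 of 4 weeks or air replicate 4 of 2 weeks, 8 without air replicate 2 of 2 weeks and 25 without air replicate 1 of 2 weeks.

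**Figure D5:**
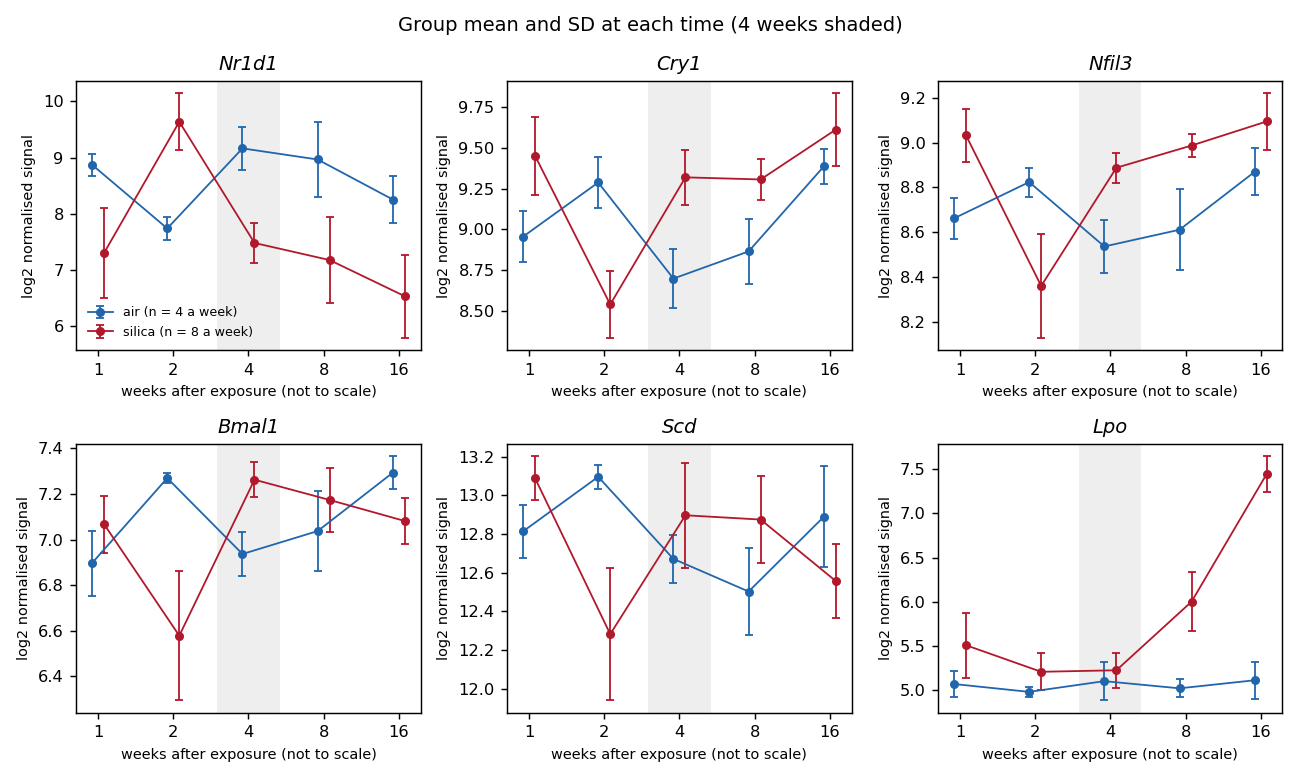
Group mean and SD of log2 normalised signal of 6 genes in air rats (blue, n = 4 a week) and silica rats (red, n = 8 a week) at each of the 5 times (horizontal axis, in weeks, not to scale), with 4 weeks shaded. Each point is a separate set of rats. Nr1d1, Cry1, Nfil3, Bmal1 and Scd have opposite silica effects at 2 and 4 weeks, and Lpo is near its air level at 4 weeks and far above it at 16 weeks.

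Against 8 weeks 0 of 13899 genes passed the test of the difference in limma (994 at an unadjusted p under 0.05), and the count was 0 to 4 under every alternative tried. Against the mean of the other 4 times 6 genes passed (0.0432%). Lpo, a peroxidase of airway secretions, had effects of 0.44 ± 0.15, 0.23 ± 0.15, 0.12 ± 0.15, 0.98 ± 0.15 and 2.34 ± 0.15 at the 5 times, and was -0.87 ± 0.16 at 4 weeks relative to the mean of the others, of which 16 weeks had the largest effect. Bmal1 (0.48 ± 0.10), Fmo2 (0.64 ± 0.14) and Fmo6 (0.64 ± 0.13) were relatively higher and Ebp, an enzyme of sterol synthesis (-0.28 ± 0.06), and Amdhd2, of amino sugar breakdown (-0.38 ± 0.08), relatively lower. This count was 0 without silica replicates 5 to 8, 0 without silica replicates 2, 5 and 7, 0 without air replicate 1, 3 or 4 or silica replicate 4 of 4 weeks, 62 without air replicate 2 of 4 weeks and 1 to 8 without any other single rat.

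The same direction was called at other times for many of the 921 genes, each time against its own air rats. At those times 3.82% (1 week), 9.39% (2 weeks), 8.93% (8 weeks) and 22.7% (16 weeks) of all genes were called. With 1 week 232 genes were shared, which is 25.2% of the 4-week calls and 43.7% of that week's, with 2 weeks 449 (48.8% and 34.4%), with 8 weeks 404 (43.9% and 32.6%) and with 16 weeks 572 (62.1% and 18.1%). Opposite calls numbered 6 at 2 weeks and 6 at 16 weeks. Counting calls in either direction at the other times, 161 of the genes higher and 14 of those lower at 4 weeks were called at all 4. Called at none of them were 233 genes, 59 higher and 174 lower at 4 weeks. Ccl20 was one of these 233, with differences at 1, 2, 8 and 16 weeks of 0.52, 0.57, 0.86 and 0.20 that did not pass. However, its difference between 4 weeks and those times did not pass either (1.04 ± 0.46, limma adjusted p = 0.443). Macrophage markers called higher numbered 9, 12, 8, 12 and 17 of 19 at the 5 times in order, cell cycle genes 3, 6, 5, 10 and 16 of 21, neutrophil markers 1, 3, 2, 6 and 7 of 12, and endothelial markers called lower 2, 4, 4, 5 and 11 of 15. The club and secretory list had 6 of 13 higher at each of the 5 times, but its median was -0.12, 0.51, 0.87, 0.49 and 0.03. Members of all these lists were chosen with earlier results of these data known. Of all 13899 genes, 372, 664, 397, 663 and 1457 were called higher at the 5 times in order. Called lower were 641, 524, 578 and 1699 at 2, 4, 8 and 16 weeks. At 1 week 531 were called in either direction. Calls over all genes were therefore also most numerous at 16 weeks. The counts of the lists were not tested against each other or against those of all genes.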

How the data were processed

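Lung RNA was measured on Illumina BeadChip arrays. Per the file headers the deposited signal is the average bead intensity of a gene and the deposited p-value is a detection p-value. The authors' processed values are on a log2 scale, judged from their values, with scaling and background steps not given in the sources used here, and were tried as another setting. BeadStudio, lumi and limma are the tools listed, per the submitters' processing notes. Groups came from the labels. The table held 21792 genes on 60 arrays, and 120 columns of per-sample values (bead errors and bead numbers) were not used. In silica replicate 3 of 4 weeks signals sat 2 lines off their genes from gene line 17 on. After they were put back, the array's correlation with the median array was 0.998 in place of 0.232.

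Background was corrected by normexp with negative controls that were worked back from detection p-values (offset 16), followed by quantile normalization and log2. Genes were kept where 4 arrays or more had a detection p under 0.05, the brightest line of each symbol, 13899 in all. Names came from RefSeq genes of assembly GRCr8, 16866 by gene identifier, 23 by accession, 133 by symbol and 129 by synonym, with 4524 keeping the symbol of the file and 117 unnamed. One limma 3.58.1 fit in R 4.3.3 gave each of 10 groups a mean, with 50 residual degrees of freedom. Differences are log2 silica minus air ± standard error for 8 and 4 rats, and calls are Benjamini-Hochberg adjusted p under 0.05 over all genes tested. "Rose" and "fell" are used of called genes, with 8 of 8 silica rats beyond the air mean for each gene named by the rule below. The code was tested on simulated data.

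Named genes were the 12 largest called rises and falls in which all 8 silica rats lay beyond the air mean, up to 4 called members of each of 40 lists (or the 2 brightest), the 5 most positive and negative of each difference between times, and 18 preset genes. The members, lists and tests were chosen with earlier results of these data known. Other members given as not passing, and Cxcl3, were chosen after their values were seen. Alternatives were other background corrections, median scaling, cyclic loess, the authors' values, other detection filters, averaging a symbol's lines, a trended variance prior, array weights, the replicate block, the weeks compared fitted alone, and each rat left out. Those leaving out silica replicates 5 to 8 or 2, 5 and 7 and the one with blocks of the deposited order were also chosen after seeing the data.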

Additional observations from a re-analysis of the deposited data

Results flagged for a closer look

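Among the 120 named genes, 9 of 240 groups of 4 or 8 rats had 1 rat far from the others, where chance alone gives about 1 in 20. In air rats these were replicate 2 for Ccl20 (7.23, the next highest being 6.09), Scd2 (12.9 against 12.8) and Scd (12.9 against 12.6), and replicate 4 for Cd3g (9.98 against 9.69) and, as the lowest, Tppp3 (11.6 against 11.7). In silica rats they were replicate 6 as the lowest for Fam20a (6.7 against 6.94) and the highest for Cidec (5.84 against 5.28), replicate 5 as the highest for C7 (8.81 against 8.38) and replicate 8 as the lowest for Npc2 (14.1 against 14.3).

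The silica effect at 4 weeks differed from that at 2 weeks, by a limma test of the difference, in 11 named genes. It was more negative for Nr1d1 (-3.58, adjusted p = 5.8e-06), Acot1 (-1.48, 0.0203), Marchf7 (-0.876, 0.0338), Pola2 (-0.615, 0.0364) and Bcl2l14 (-0.584, 0.00359). It was more positive for Cry1 (1.37, adjusted p = 1.29e-07), Scd (1.04, 0.00288), Bmal1 (1.02, 8.97e-07), Fmo6 (0.9, 0.00345), Fmo2 (0.835, 0.0188) and Nfil3 (0.816, 5.8e-06). From the mean of the other 4 times it differed in 6 named genes. These were Lpo (-0.874, adjusted p = 0.0225), Amdhd2 (-0.375), Ebp (-0.284), Bmal1 (0.475), Fmo6 (0.642) and Fmo2 (0.641), with an adjusted p of 0.0457 for the last 5.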

How the results depend on the processing

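Of the 94 named genes called, 29 stayed called under every alternative and 47 whichever single rat was left out. Over all named genes and alternatives 340 values lost a call in the same direction, 16 reversed, and 2884 kept direction and call. The count of 921 became 419 with median scaling, 443 with the 4-week arrays fitted alone, 500 without silica replicates 5 to 8, 474 without silica replicates 2, 5 and 7, and 240 to 1454 with single rats left out (240 without air replicate 3, 353 without air replicate 4, 1454 without air replicate 2). The stricter count of 82 became 52 with normexp without controls, 46 with the authors' values and 51 to 118 with single rats left out. The 16 differences between 4 and 2 weeks became 4 with median scaling, 10 with array weights, 9 without silica replicates 2, 5 and 7, 8 with these weeks fitted alone and 8 to 25 without single rats. The 0 between 8 and 4 weeks became 1 without background correction, with blocks of the deposited order or with these weeks fitted alone, 3 with normexp without controls, 4 with the authors' values and 0 to 4 without single rats. The 6 against the other times became 0 with median scaling, array weights, or without either set of silica rats, 2 without the detection filter, 16 with blocks of the deposited order and 0 to 62 without single rats. With the replicate number as a block 265 genes were called (66.8% higher), 6 differed between 4 and 2 weeks and 1 from the other times, and 246 of the 265 were among the 921. Same-numbered rats did not deviate together (correlations of 0.10, -0.07, -0.12 and -0.04 over the 4 numbers), and the block leaves silica replicates 5 to 8, which have no air partner, out of the comparison. Signs turned, all in uncalled genes, for Actg2 (0.0199 without air replicate 4, range -0.236 to 0.0199 over single omissions), Tnnt3 (-0.00206 with order blocks), Tnni2 (-0.0133) and Cidec (0.048) without silica replicates 2, 5 and 7, Cidec without air replicate 3 (0.011), Hbb (-0.0978) and Hba-a1 (-0.0798) with median scaling, Hba-a1 without air replicate 1 (-0.000297, to 0.147), Cd3g without air replicate 4 (0.0671) or silica replicate 1 (0.00344) or 2 (0.0241) (from -0.0502), Marchf7 without air replicate 3 (-0.00572, to 0.208), Amdhd2 with cyclic loess (0.00281) or without air replicate 1 (0.00144) or 3 (0.0495) (from -0.0807), and Dbp without air replicate 4 (0.0152, from -0.2). The cause of these changes was not tested. Signal near background limits Dlk1, Tac1, Cxcl6, Tmem45b and Sirpb3, which were not detected in every rat. Air signals of Lpo at 4 weeks were also low (4.92 to 5.41), as were those of Cox6a2.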

Other observations

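Other genes stood out among the 82 that passed the stricter rule, named after their values were seen. The smallest p-value of all genes at 4 weeks belonged to LOC497841, which the sources used here do not annotate further. It ran from 10.61 to 11.16 in the 4 air rats and 11.97 to 12.22 with a median of 12.13 in the 8 silica rats (1.24 ± 0.09, 2.37-fold, limma adjusted p = 2.04e-14), and the groups did not overlap. Its differences at 1, 2, 8 and 16 weeks were 1.19, 1.20, 1.45 and 1.33. Ceacam4, of a family of cell adhesion molecules, rose by 1.37 ± 0.12 (7.74 to 8.07 in air and 8.91 to 9.44 with a median of 9.35 in silica rats). Slc13a2, a carrier of citrate and succinate, rose by 1.12 ± 0.14, and Ltb, a cytokine of lymphoid tissue, by 0.60 ± 0.09.

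A further 4 of the genes chosen in this way encode secreted plasma proteins, while of the list of 9 liver genes 1 was called, where 6.63% of all genes were. Hp, which binds free haemoglobin, was 9.40 to 10.08 in air rats and 10.47 to 11.13 with a median of 10.67 in silica rats (0.97 ± 0.13, 1.96-fold, adjusted p = 4.53e-07), and C4bpa, a regulator of complement, was 9.11 to 10.01 and 10.49 to 10.83 with a median of 10.73 (1.19 ± 0.15). Itih1, a protein bound to hyaluronan, rose by 1.39 ± 0.17 and Hpx, which binds haem, by 1.04 ± 0.22. The liver is a known source of all 4, and the mean of liver genes was high in silica replicates 2, 5 and 7. Without these 3 rats the differences were 0.81 for Hp, 1.16 for C4bpa and 1.17 for Itih1, all still called (limma adjusted p = 0.000102, 5.29e-06 and 1.48e-05). Hpx moved from 1.04 to 0.63 and was no longer called (adjusted p = 0.0581).

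The largest differences that did not pass belonged to genes that varied widely among silica rats. Scgb3a1 differed by 3.37 ± 1.28, Bpifa1 by 2.93 ± 1.22 and the cardiac genes Myh6 by 2.87 ± 1.31 and Myl7 by 2.78 ± 1.22. Without silica replicates 5 to 8 they differed by 2.04, 0.79, -0.03 and 0.14.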
